A study of Mus musculus with 12 samples.

Results

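The cytosolic ribosome is built from a large (60S) and a small (40S) subunit, and the genes for its proteins carry names that start with Rpl for the large subunit and Rps for the small one. These proteins are made in matched amounts and assembled with ribosomal RNA in the nucleolus. Their mRNAs are known for a run of pyrimidines at the 5′ end through which mTORC1 and the RNA-binding protein LARP1 control their translation. Pressure overload of the heart is known to raise protein synthesis and ribosome number as cardiomyocytes enlarge. Rpl3l, a close relative of the core protein Rpl3, is made mainly in heart and skeletal muscle. RNA levels show neither how well an mRNA is translated nor how many ribosomes a cell holds.

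The genes described here are the rows of the deposited table named Rpl or Rps plus a digit, together with Rplp0, Rplp1, Rplp2 and Rpsa. The 9 Rps6k kinase genes were left out, and 0 rows held a pseudogene name. The rule took 84 of 13552 genes, 50 with large subunit names and 34 with small subunit names. Of these, 77 encode core ribosomal proteins (46 large and 31 small), 6 are paralogs and 1, Rps19bp1, encodes a protein that binds Rps19 and is no ribosomal protein. The paralogs were Rpl3l, Rpl7l1, Rpl22l1, Rpl36al, Rps4l and Rps27l. All 84 genes passed the filter on low values, which asked that 3 mice or more reach 1 RPKM (read counts divided by exon length in kilobases and by library size).

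RNA was sequenced from hearts of 12 male mice, 3 in each of 4 groups: wild-type (WT) mice and knock-in (KI) mice with the S14A form of Bcl-xL, each after TAC or a sham operation. TAC, transverse aortic constriction, narrows the aorta and loads the left ventricle with pressure. Sham mice had the operation without the constriction, and all hearts were taken 9 h later. Per the labels the strain was C57BL/6, and per the methods C57BL/6J and 8 to 10 weeks old. In KI mice serine 14 of Bcl-xL, a survival protein of the Bcl-2 family, is replaced by alanine in every cell on both alleles. The KI line was made in R1 embryonic stem cells, its neomycin cassette was removed with CMV-Cre, and it was backcrossed to C57BL/6J. The WT mice were bought from a supplier, so they were not littermates of the KI mice. Gene levels do not show the codon change, so genotype labels could not be checked with them.

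The libraries held between 23650170 and 32455167 reads on genes, and a ribosomal protein gene had between 94.5 and 12125 reads as a mean over mice, with a median of 1815. The tissue was whole heart: summed RPKM of 5 cardiomyocyte markers (Myh6, Tnnt2, Actc1, Myl2, Ryr2) lay between 12342 and 22447, against 85.3 to 549 for 5 fibroblast markers and 39.6 to 89.2 for 5 macrophage markers. None of 4 lymphocyte markers had a row in the table. In such bulk samples fewer cells of a type and less RNA per cell cannot be told apart. Mitochondrial transcripts took 6.35% of the reads in WT sham 1 and between 9.74% and 12.5% in the other 11 mice.

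The starts of some of these genes show the pyrimidine run. RefSeq's promoter table (GRCm38.p6) held 63 of the 84 genes. A C followed by pyrimidines, 5 bases or more in all from the annotated start, was found in 13 of the 63 (20.6%) and in 813 of all 27025 genes of the table (3.01%). The sequences below run from 30 bases before the annotated start to 20 bases from it, and the capitals mark the run. The first 5 were chosen as clear cases of the run in both subunits, beginning with Rps6, the protein that S6 kinases phosphorylate. The last 3 belong to genes whose RNA changed in the comparisons that follow, and no run of that length begins at their annotated starts. A shifted start would hide a run, so a missing match says only that these letters do not stand at that base.
Rps6, chr4:86857348-86857397, minus strand: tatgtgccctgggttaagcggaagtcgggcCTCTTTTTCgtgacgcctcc
Rps18, chr17:33955646-33955695, minus strand: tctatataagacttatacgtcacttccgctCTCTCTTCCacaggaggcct
Rps27, chr3:90213629-90213678, minus strand: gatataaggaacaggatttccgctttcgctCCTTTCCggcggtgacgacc
Rpl15, chr14:18270967-18271016, minus strand: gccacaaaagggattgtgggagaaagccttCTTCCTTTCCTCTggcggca
Rpl28, chr7:4792935-4792984, plus strand: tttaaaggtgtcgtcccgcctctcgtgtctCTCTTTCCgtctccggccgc
Rpl3l, chr17:24727796-24727845, plus strand: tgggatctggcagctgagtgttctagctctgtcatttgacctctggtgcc
Rpl10a, chr17:28328441-28328490, plus strand: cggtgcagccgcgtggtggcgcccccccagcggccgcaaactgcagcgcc
Rps28, chr17:33824543-33824592, minus strand: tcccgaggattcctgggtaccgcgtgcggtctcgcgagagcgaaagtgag

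Within the 300 bases around the annotated start, the letters CCGGAAG stood on either strand in 25 of the 63 genes (39.7%) and in 9.93% of all genes of the promoter table. The letters GCCATCTT stood in 6 of the 63 (9.52%) and in 3.19% of all genes. CCGGAAG is the core of sites bound by ETS family factors, and GCCATCTT is the core bound by YY1. The 13 genes with a pyrimidine run did not stand apart in KI hearts, with a median difference between TAC and sham of 0.44 on the log2 scale, the same 0.44 as in the 50 genes without a run. In WT hearts the medians were 0.10 with a run and 0.23 without one.

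Across the 84 genes the mean level over 12 mice ran from 1.90 RPKM for Rps10 to 253 RPKM for Rplp0, the scaffold of the stalk that binds elongation factors. The median over genes was 34.0 RPKM. In all, 7 genes reached 100 RPKM, among them Rplp0, Rplp1, Rpl4 and the paralog Rpl3l, and 12 genes stayed under 10 RPKM. Together the genes took between 0.451% and 0.849% of the reads in a mouse. The share of 75-base stretches that a gene's transcripts have in common with other genes was a median of 30.9%, reached 50% or more in 26 of the 84, and was 0 in 4 genes, Rpl3l among them. Reads from such stretches match other genes as well, so levels of the 26 genes are uncertain. How these reads were mapped was not checked.

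The genes of both subunits moved up and down together from mouse to mouse. In each mouse the median distance of the genes from their own means over 12 mice, in log2(RPKM + 1), was nearly equal for the 2 subunits, with differences between 0.00031 and 0.057. In WT sham mice this median for the large subunit was 0.19, -0.31 and -0.32, and in WT TAC mice 7, 9 and 10 it was 0.068, -0.12 and 0.18. In KI sham mice it was -0.54, 0.26 and -0.27, and in KI TAC mice 5, 6 and 7 it was 0.11, 0.33 and 0.44. So 2 sham mice, WT sham 1 and KI sham 2, stood well above the other sham mice of their groups and inside the range of the 6 TAC mice. In KI sham 1 only 1 of the 84 genes lay above its own mean, and in KI TAC 7 it was 83.

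**Figure D1:**
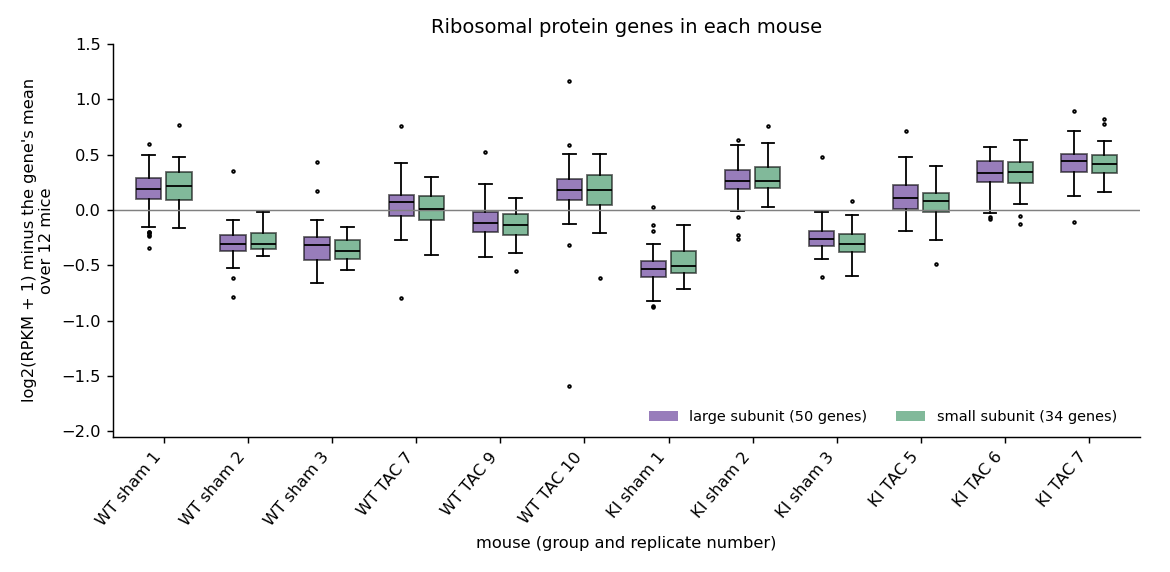
Each box shows the genes of a subunit in a mouse, as log2(RPKM + 1) minus the gene's mean over 12 mice (y axis), with mice by group and replicate number on the x axis; line, box and whiskers are the median, the quartiles and points within 1.5 box lengths. Both subunits sit at nearly the same height in every mouse, and WT sham 1 and KI sham 2 sit above the other 4 sham mice.

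WT sham 1 and KI sham 2 also stood apart outside the ribosomal protein genes. The median distance of 425 other genes with 1000 bases of exon or less was 0.29 in WT sham 1 and 0.27 in KI sham 2, and between -0.23 and 0.18 in the other 10 mice. Ribosomal protein genes are short, with a median exon length of 1754.5 bases against 4282.5 for all genes tested. The part of transcript length or RNA quality in these mice was not tested. Counts of calls and medians are therefore also given without these 2 mice. They were picked for their high levels of these very genes, so leaving them out raises the difference between TAC and sham by construction, and calls made that way are no evidence of a rise.

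The ratio of the summed RPKM of the large to the small subunit did not separate the groups. It was 1.35 ± 0.044 (SD, n = 3) in WT sham, 1.35 ± 0.038 in WT TAC, 1.35 ± 0.10 in KI sham and 1.41 ± 0.059 in KI TAC. The lowest single value was 1.25, in KI sham 1, and the highest was 1.47, in KI TAC 5. The share of reads on large subunit genes was 0.346% ± 0.069 in WT sham, 0.393% ± 0.033 in WT TAC, 0.348% ± 0.098 in KI sham and 0.463% ± 0.049 in KI TAC. For the small subunit it was 0.234% ± 0.053, 0.260% ± 0.029, 0.235% ± 0.068 and 0.306% ± 0.039 in the same order. The shares of sham and TAC mice overlapped in both genotypes.

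TAC in WT hearts left most of these genes within the spread between mice, apart from the pair Rpl3 and Rpl3l, which moved in opposite directions. Of the 84 genes, 1 rose (1.19%) and 1 fell at an adjusted p under 0.05 (limma, Benjamini-Hochberg over 11240 genes), beside 6.96% of all genes tested that rose and 4.60% that fell. The median difference on the log2(RPKM + 1) scale was 0.22 for the large subunit and 0.19 for the small one, and 0.035 for all genes. The difference was above 0 in 71 of the 84 genes, and in 53.5% of all genes. WT TAC and WT sham mice did not overlap, with TAC higher, in 12 of the 84 genes (14.3%) and in 20.0% of all genes, so this count lay below the background. The sham group of this comparison holds WT sham 1. Without WT sham 1 and KI sham 2, 2 of the 84 genes were called higher (Rpl3 and Rpl10a), Rpl3l was still called lower, and the medians were 0.36 and 0.36, beside 514 of all genes that rose (4.57%). The count of genes that rose was also 2 without WT TAC 9 and without KI sham 2, where 5.99% and 6.73% of all genes rose. The medians fell to 0.12 and 0.12 without WT sham 2, to 0.12 and 0.068 without WT sham 3, and to 0.16 and 0.087 without WT TAC 10.

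In KI hearts nearly every gene of both subunits was higher on average after TAC, but 7 passed the test. They were Rpl10a, Rps28, Rpl3, Rpl24, Rps27a, Rpl7l1 and Rps24, that is 8.33% of the 84, beside 8.57% of all genes that rose and 14.7% that fell. This share is near the background, so the count of calls is no result about the ribosomal protein genes. The median difference was 0.47 for the large and 0.42 for the small subunit, against -0.10 for all genes, and it was above 0 in 83 of 84 genes (all genes, 41.0%). KI TAC and KI sham mice did not overlap, with TAC higher, in 10 of the 84 genes (11.9%), beside 13.6% of all genes. These genes moved together within each mouse, so the counts are not 84 separate observations.

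The count in KI hearts depended on KI sham 2 and on the scaling. Without KI sham 2 it was 39, beside 7.14% of all genes that rose and 11.1% that fell, and without KI sham 2 and WT sham 1 together it was 55 of the 84, with medians of 0.68 and 0.64. Those 55 stood beside 855 of 11240 genes that rose (7.61%). It was 3 without KI sham 1, KI sham 3, KI TAC 6 or KI TAC 7, where between 5.23% and 7.58% of all genes rose, and the medians were lowest without KI sham 1, at 0.27 and 0.31. Scaling by the median ratio over genes brought the median of all genes from -0.10 to 0.0030 and called 38 genes, beside 1436 genes that rose and 1350 that fell (12.8% rose), where the deposited scale gave 963 and 1657. Relative to the median of all genes the large subunit stood 0.58 higher and the small one 0.52 higher on the deposited scale, and 0.60 and 0.54 under that scaling.

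**Figure D2:**
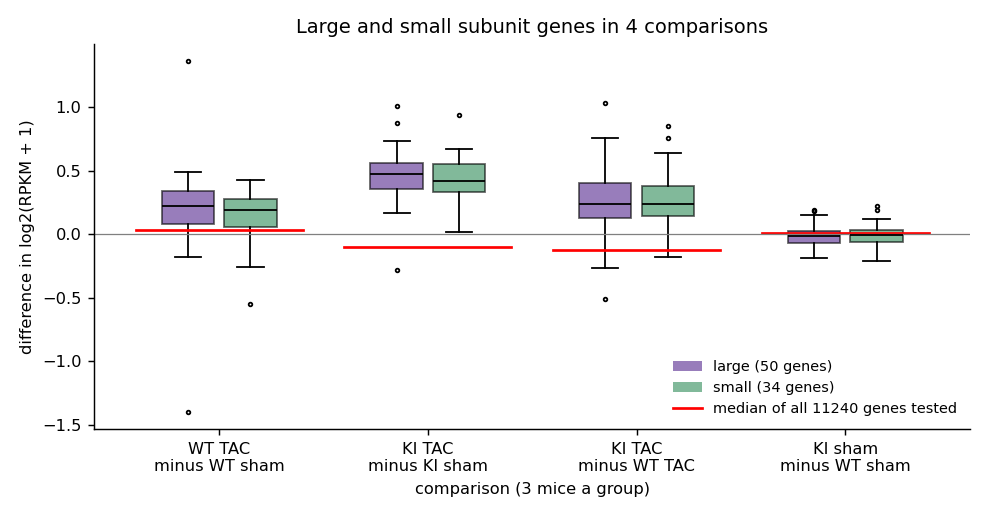
Boxes show the difference in log2(RPKM + 1) of the large (50) and small (34) subunit genes for 4 comparisons of groups of 3 mice, and red lines show the median over all 11240 genes tested. The boxes of both subunits lie above the red line in the 3 comparisons with TAC mice, by the most after TAC in KI hearts, and around it between the sham groups.

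Sham hearts of the genotypes did not differ measurably. KI sham minus WT sham had a median of -0.017 for the large and -0.0037 for the small subunit, and 0.0068 for all genes, and the difference was above 0 in 36 of 84 genes. By limma 0 of the 84 rose or fell, beside 0.0178% of all genes that rose and 0.00% that fell. At an unadjusted p under 0.05 it was 0 of the 84, beside 0.329% of all genes, and limma-voom on recovered reads also called 0. The median half-width of the 95% interval of a gene's difference was 0.50 on the log2 scale, so smaller differences than that would mostly not be seen. The medians ranged from -0.24 to 0.16 when a mouse was left out, and were -0.065 and -0.058 without WT sham 1 and KI sham 2.

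KI TAC hearts held more ribosomal protein RNA than WT TAC hearts on average, with a median difference of 0.24 for the large and 0.23 for the small subunit against -0.12 for all genes. The difference was above 0 in 74 of 84 genes, and in 37.4% of all genes. Only Rpl3l passed the test and 0 genes fell, beside 2.92% of all genes that rose and 8.13% that fell. The 3 KI TAC mice all lay above the 3 WT TAC mice in 27 of the 84 genes (32.1%), beside 10.1% of all genes. These were 16 large and 11 small subunit genes. The genes moved together within each mouse, so such counts are not 84 separate observations. Over the genes as a whole the mice overlapped. The median distance of large subunit genes from their own means was 0.18 in WT TAC 10 and 0.11 in KI TAC 5. Genes outside the cytosolic ribosome had a like difference: the median was 0.24 for 77 genes of the mitochondrial ribosome, with 64 above 0. The median distance of 425 other short genes from their own means averaged -0.18 over the WT TAC and 0.073 over the KI TAC mice. Scaling by the median ratio called 6 genes in place of 1, with 643 genes that rose and 604 that fell among all genes, where the deposited scale gave 328 and 914. The medians were 0.39 and 0.39 under that scaling, 0.15 and 0.20 without WT TAC 9, 0.16 and 0.20 without KI TAC 7, and 0.34 and 0.36 without KI TAC 5. The count was 0 without WT TAC 7, WT TAC 10, KI TAC 5 or KI TAC 6, where between 0.436% and 1.90% of all genes rose, and 2 without WT sham 1, KI sham 1 or KI sham 2, where between 3.09% and 3.17% rose. Without WT sham 1 and KI sham 2 together, which enter this comparison through the shared estimate of the spread, it was 7, namely Rpl3l, Rplp1, Rplp2, Rps29, Rpl10a, Rpl36 and Rps28, beside 3.75% of all genes that rose and 8.43% that fell.

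The difference between the genotypes in the effect of TAC was tested as an interaction. It had a median of 0.23 for the large and 0.25 for the small subunit and -0.13 for all genes. These medians depended on single mice: they were 0.048 and 0.11 without KI sham 1, 0.095 and 0.094 without WT sham 1, 0.14 and 0.18 without KI TAC 7, and 0.17 and 0.16 without WT TAC 9. They were 0.47 and 0.48 without KI sham 2, 0.32 and 0.34 without KI sham 2 and WT sham 1 together, and 0.39 and 0.42 under median-ratio scaling. By limma 0 of the 84 genes passed in either direction, beside 0.00% of all genes with a positive and 0.00% with a negative interaction, and limma-voom called 0. At an unadjusted p under 0.05 it was 3 of the 84 (Rpl3l, Rps28 and Rps29), beside 14.8% of all genes. So the larger median in KI than in WT hearts was not shown gene by gene to differ between genotypes. The comparisons share groups: every group enters a difference between TAC and sham, a difference between genotypes and the interaction. They also share an estimate of the spread, so the values of the comparisons are not independent of each other.

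**Figure D3:**
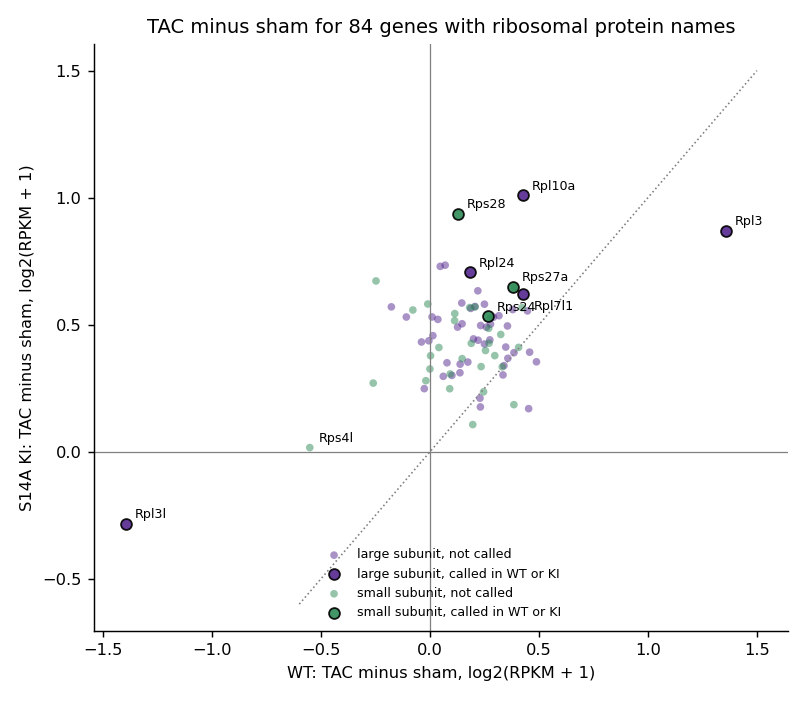
Each point is a gene, with TAC minus sham in log2(RPKM + 1) for WT on the x axis and for KI on the y axis; dark outlines mark genes past an adjusted p of 0.05 in either genotype and the dotted line marks equal differences. Most points lie above 0 on both axes and above the dotted line, and Rpl3 and Rpl3l lie apart from the rest.

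Rpl3, a core protein of the large subunit next to the site where peptide bonds form, was the only one of the 84 genes to rise after TAC in WT hearts (chr15:80077791-80091868, minus strand). Its level was 20.9, 13.7 and 15.2 RPKM in WT sham mice and 41.6, 35.2 and 55.8 RPKM in WT TAC mice. All TAC mice lay above all sham mice. The mean was 2.67-fold higher, with a log2 difference of 1.36 ± 0.28 (SE, adjusted p = 0.0074). In KI mice it was 12.7, 20.6 and 15.6 RPKM after sham and 22.0, 27.0 and 45.9 RPKM after TAC. Again no TAC mouse overlapped a sham mouse, although KI TAC 5 and KI sham 2 lay close together. The log2 difference in KI was 0.87 ± 0.28 (adjusted p = 0.036), and it lost its call on leaving out any of 4 mice, with adjusted p up to 0.12. Rpl3 shares 64.0% of its 75-base stretches with other genes.

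Rpl3l, the muscle paralog that takes the place of Rpl3 in ribosomes of heart and skeletal muscle, fell after TAC in WT hearts (chr17:24727820-24736143, plus strand). WT sham mice had 156, 131 and 139 RPKM and WT TAC mice had 58.8, 75.9 and 33.3 RPKM, with no overlap. The log2 difference was -1.40 ± 0.27 (SE, adjusted p = 0.0053), and it kept its call under every one of 23 alternatives. KI sham mice had 104, 160 and 143 RPKM and KI TAC mice 109, 127 and 95.2 RPKM, and these ranges overlapped (log2 difference -0.28 ± 0.27, adjusted p = 0.48). All KI TAC mice lay above all WT TAC mice, with a log2 difference of 1.03 ± 0.27 (adjusted p = 0.029). That call was lost when WT TAC 7, WT TAC 10, KI TAC 5 or KI TAC 6 was left out and in a fit of the TAC groups alone, with adjusted p up to 0.12. The interaction was 1.11 ± 0.38 and did not pass (adjusted p = 0.22, from 0.069 to 0.45 over the alternatives). Rpl3l shares no 75-base stretch with another gene, so its level does not rest on shared reads.

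As a share of the RPKM of the pair, Rpl3l made up 88.2%, 90.5% and 90.1% in WT sham mice and 89.1%, 88.5% and 90.2% in KI sham mice. In WT TAC mice it made up 58.5%, 68.3% and 37.4%, and in KI TAC mice 83.3%, 82.5% and 67.5%. All 6 TAC mice lay below all 6 sham mice, and the lowest KI TAC mouse lay just under the highest WT TAC mouse. The size of the share depends on the exon lengths used, 3175 bases for Rpl3 and 1643 for Rpl3l. It also depends on how reads were assigned to Rpl3, which shares 64.0% of its 75-base stretches with other genes. The sum of both genes was 158 ± 16.5 RPKM (SD, n = 3) in WT sham, 100.2 ± 11.0 in WT TAC, 152 ± 32.1 in KI sham and 142 ± 11.2 in KI TAC. With 3 mice a group an exact two-sided permutation test cannot go below p = 0.1, so no test is given for the share. Of 5 cardiomyocyte markers 1 passed in WT hearts: Myh6, the adult myosin heavy chain, fell by 1.15 on the log2 scale (adjusted p = 0.013), a call lost without WT sham 1 and KI sham 2. Actc1 had 0.42 and did not pass, and 4.60% of all genes fell. In WT TAC 10, the mouse with the lowest Rpl3l share, the summed RPKM of the fibroblast markers was 549, against 126 and 251 in the other WT TAC mice. The part of a change in cell makeup was not tested.

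**Figure D4:**
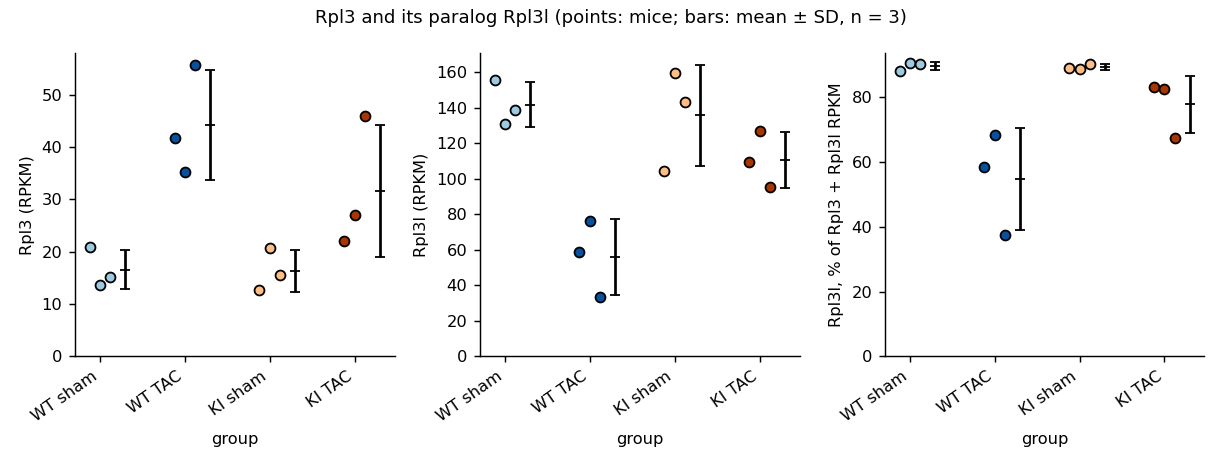
Points are mice, in RPKM for Rpl3 and Rpl3l and in percent of their summed RPKM for the share of Rpl3l, and bars are mean ± SD (n = 3). The share of Rpl3l is about the same in all 6 sham mice (88.2% to 90.5%), lowest in WT TAC (37.4% to 68.3%) and between in KI TAC (67.5% to 83.3%). The size of the share depends on the exon lengths used for RPKM.

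Rpl10a, a large subunit protein at the stalk where spent tRNA leaves, showed the largest rise after TAC in KI hearts (chr17:28328471-28331033, plus strand). Its level was 25.5, 38.2 and 29.2 RPKM in KI sham mice and 66.4, 55.6 and 66.4 RPKM in KI TAC mice, without overlap. The mean was 2.03-fold higher and the log2 difference was 1.01 ± 0.21 (SE, adjusted p = 0.0045). In WT mice it was 43.0, 28.4 and 25.3 RPKM after sham and 43.9, 42.1 and 41.7 RPKM after TAC (log2 difference 0.43 ± 0.21, adjusted p = 0.21). WT sham 1 lay among the WT TAC mice, and without it and KI sham 2 the gene was called in WT too. Rpl10a shares 56.7% of its 75-base stretches with other genes.

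Rps28, a small subunit protein where the mRNA leaves the ribosome, had 11.0, 19.1 and 14.4 RPKM in KI sham mice and 24.9, 28.7 and 32.7 RPKM in KI TAC mice (chr17:33819027-33824562, minus strand). No KI TAC mouse overlapped a sham mouse, and the log2 difference was 0.94 ± 0.22 (SE, adjusted p = 0.0077). In WT mice it was 21.5, 14.9 and 13.6 RPKM after sham and 17.0, 17.8 and 19.2 RPKM after TAC, so WT sham 1 was the highest of the 6 (log2 difference 0.13, adjusted p = 0.74). The interaction for Rps28 was 0.81 ± 0.31 and did not pass (adjusted p = 0.26). Rpl7l1, a nucleolar relative of Rpl7, had the smallest error of the called genes: 7.95, 7.19 and 6.39 RPKM in KI sham mice and 10.9, 11.6 and 12.2 RPKM in KI TAC mice. Its log2 difference was 0.62 ± 0.14 (adjusted p = 0.0074). WT TAC mice, at 10.5, 9.76 and 9.95 RPKM, also lay above WT sham mice, at 7.81, 7.05 and 6.90 RPKM, with a log2 difference of 0.43 ± 0.14 that missed the threshold (adjusted p = 0.070). The calls of Rpl10a, Rps28 and Rpl7l1 in KI hearts held under all 23 alternatives.

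The other 3 genes that passed in KI hearts were Rpl24, Rps27a and Rps24, which like Rpl3 lost their calls under several alternatives. Rpl24, which helps bridge the subunits, had 3.18, 5.53 and 3.68 RPKM after sham and 6.06, 8.06 and 7.67 RPKM after TAC (log2 difference 0.71 ± 0.21 SE, adjusted p = 0.026), and 80.9% of its stretches are shared with other genes. Rps27a, made as a fusion with ubiquitin, had 13.4, 23.6 and 14.6 RPKM after sham and 22.9, 26.2 and 32.0 RPKM after TAC. Its groups overlapped, since KI sham 2 lay above KI TAC 5, and its log2 difference was 0.65 ± 0.21 (adjusted p = 0.042). Rps24, a small subunit protein needed to process ribosomal RNA, had 4.75, 7.95 and 5.41 RPKM after sham and 8.36, 9.73 and 8.97 RPKM after TAC (log2 difference 0.53 ± 0.18, adjusted p = 0.043). Of 23 alternatives, 4 ended the call of Rpl24, 8 that of Rps27a and 9 that of Rps24, nearly all of them by leaving out a mouse.

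**Figure D5:**
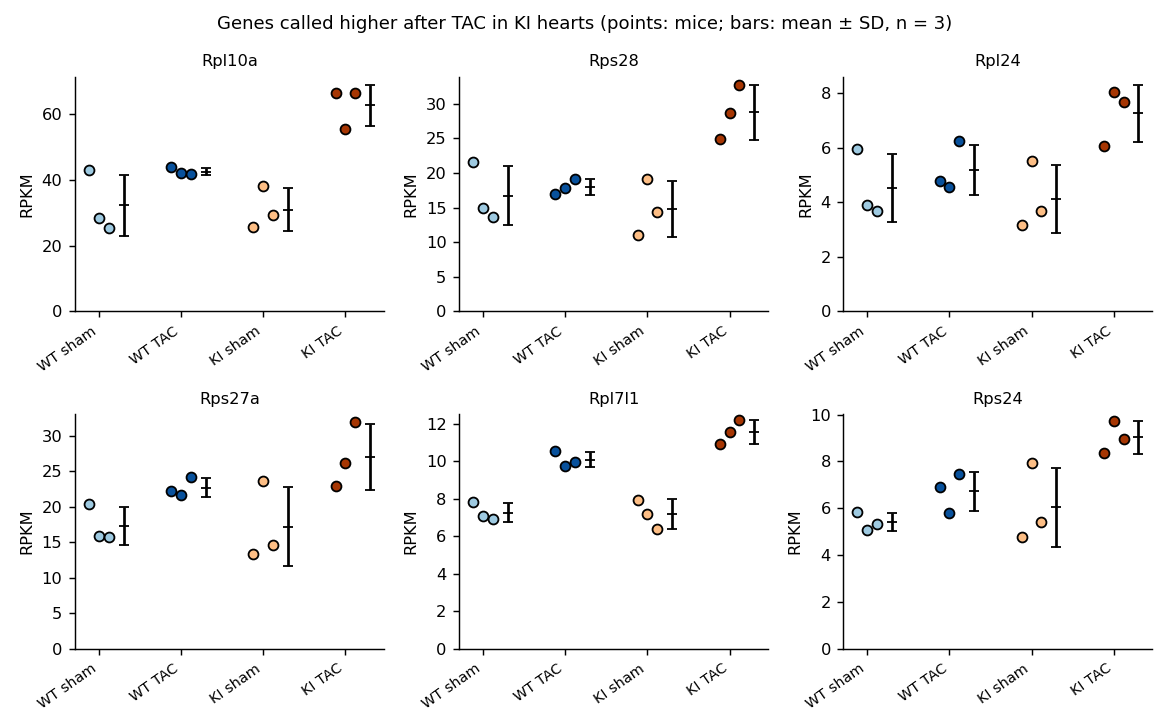
Points are the RPKM of 6 of the 7 genes called higher after TAC in KI hearts (Rpl3 is shown with Rpl3l), by group and mouse, and bars are mean ± SD (n = 3). For Rpl10a, Rps28, Rpl24, Rpl7l1 and Rps24 every KI TAC mouse lies above every KI sham mouse, while for Rps27a KI sham 2 lies above KI TAC 5.

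Beside Rpl3l and Rpl7l1, the paralogs passed the test in no comparison of the main fit of all 12 mice. Rpl36al passed in KI hearts once WT sham 1 and KI sham 2, picked on these genes, were left out, and so did Rpl36a, Rps27 and Rps19bp1 (all genes, 7.61%). Rpl22l1 had group means of 1.77, 2.66, 2.07 and 3.02 RPKM (WT sham, WT TAC, then KI sham, KI TAC), and its core relative Rpl22 had 12.7, 12.4, 12.5 and 14.9 RPKM. The log2 difference of Rpl22l1 after TAC was 0.39 in both genotypes (adjusted p = 0.13 in WT and 0.086 in KI). Rpl36al had 1.74, 2.84, 2.15 and 2.97 RPKM, with a log2 difference of 0.49 ± 0.16 (SE) in WT that missed the threshold (adjusted p = 0.063), and Rpl36a had 5.50, 6.56, 5.61 and 8.09 RPKM. Rpl7, the core relative of Rpl7l1, had 37.4, 48.1, 43.5 and 54.7 RPKM and a log2 difference of 0.34 in both genotypes.

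In the small subunit, Rps27l, a paralog known as a target of p53, stood as high as its core relative. Rps27l had 40.1, 47.6, 40.0 and 52.0 RPKM and Rps27 had 42.9, 40.0, 38.9 and 57.0 RPKM, in the same order of groups. Rps4l, annotated as a transcribed processed pseudogene, lay furthest below the small subunit in WT, with 38.5, 20.1 and 15.3 RPKM in WT sham mice and 16.9, 14.9 and 14.2 RPKM in WT TAC mice. WT sham 1 stood far above the other 5 WT mice, and the difference did not pass (log2 difference -0.55 ± 0.36 SE, adjusted p = 0.33). Its core relative Rps4x had 39.2, 42.2, 40.1 and 47.0 RPKM. Rps19bp1, no ribosomal protein, had a log2 difference of 0.43 in KI and 0.27 in WT (adjusted p = 0.15 and 0.41).

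The genes of the stalk passed the test in no comparison of the main fit of all 12 mice. Rplp1, Rplp2 and Rpl12 passed in KI hearts, and Rplp1 and Rplp2 between the TAC groups, once WT sham 1 and KI sham 2 were left out. That choice was made on these genes. There 55 of the 84 genes and 7.61% of all genes rose in KI hearts. Between the TAC groups 3.75% of all genes were higher in KI TAC. Rplp1 had 206, 94.7 and 95.1 RPKM in WT sham mice, 128, 112 and 150 RPKM in WT TAC mice, 86.0, 189 and 138 RPKM in KI sham mice and 204, 217 and 235 RPKM in KI TAC mice. WT sham 1 and KI sham 2 each held about as much as the KI TAC mice, and KI TAC minus KI sham was 0.73 ± 0.32 (SE, adjusted p = 0.11). Rplp2 had group means of 15.3, 13.6, 15.7 and 22.1 RPKM and Rplp0, often used as a reference gene, had 232, 259, 232 and 291 RPKM. Rplp0 differed between TAC and sham by 0.17 ± 0.21 on the log2 scale in WT (adjusted p = 0.63) and by 0.35 ± 0.21 in KI (adjusted p = 0.25).

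Rpl5 and Rpl11, which form a particle with 5S ribosomal RNA and can bind Mdm2, also did not pass in the main fit of all 12 mice. Rpl11 and Rps6 passed in KI hearts once WT sham 1 and KI sham 2, picked on these genes, were left out (all genes, 7.61%). Rpl5 had 21.7, 28.2, 23.3 and 30.1 RPKM as group means and Rpl11 had 23.2, 26.3, 22.1 and 32.8 RPKM. In WT hearts every TAC mouse lay above every sham mouse for Rpl5 (log2 difference 0.36 ± 0.18 SE, adjusted p = 0.22). Rps6 had 43.0, 51.7, 42.9 and 61.2 RPKM, with a log2 difference of 0.28 ± 0.22 in WT and 0.53 ± 0.22 in KI (adjusted p = 0.44 and 0.101). Rpsa, also known as the laminin receptor, had 47.6, 62.7, 50.6 and 56.7 RPKM, and its log2 difference was 0.38 ± 0.21 in WT and 0.19 ± 0.21 in KI (adjusted p = 0.25 and 0.56).

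Rps29, Rps21 and Rpl36 are among the 6 genes with the shortest exons. Rps29 had 89.1, 51.6 and 47.8 RPKM in WT sham mice, 47.7, 48.2 and 56.7 RPKM in WT TAC mice, 41.4, 84.1 and 54.8 RPKM in KI sham mice and 80.7, 99.3 and 98.5 RPKM in KI TAC mice. It had the largest difference between KI TAC and WT TAC of the small subunit, 0.85 ± 0.27 (SE), which missed the threshold (adjusted p = 0.057). Rps21 had -0.26 ± 0.26 after TAC in WT (adjusted p = 0.55), and Rpl36 had -0.18 ± 0.27 (adjusted p = 0.71). Across the 84 genes the difference between TAC and sham in WT went with log2 exon length at r = 0.34, against 0.15 over 11236 genes with a length. For KI TAC minus WT TAC it was -0.37, against -0.25 over all genes, and for TAC in KI it was -0.038, against -0.067. These correlations are across genes of the same mice, which are not independent, and serve as a description. The 42 genes at or under the members' median length had a median difference between TAC and sham of 0.15 in WT and 0.46 in KI, and the 42 longer ones 0.27 and 0.44. When the trend with length over all other genes was removed, 5 of the 84 rose in WT and 36 in KI, beside 7.42% and 13.4% of all genes.

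The genes for 77 proteins of the mitochondrial ribosome (Mrpl and Mrps plus a digit) did not share the direction of the cytosolic ones in WT hearts: their median difference was -0.32, with 0 that rose and 1 that fell, where the cytosolic ones had 0.21 and all genes 0.035. Of all genes 6.96% rose and 4.60% fell. In KI hearts it was -0.057 (all genes, -0.10), with 1 that rose and 1 that fell, beside 8.57% and 14.7% of all genes. Without WT sham 1 and KI sham 2 the medians were -0.20 in WT and 0.0995 in KI. Between KI TAC and WT TAC the median was 0.24, beside 0.24 for the cytosolic genes, and 0 of the 77 rose, beside 2.92% of all genes (4 without those mice, beside 3.75%). The difference between the 2 kinds of ribosomal protein was not tested.

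Of 14 genes that escort ribosomal proteins, finish the subunits or, as Mdm2 does, bind free ribosomal proteins, 3 rose in WT hearts after TAC and 8 rose in KI hearts, with 0 that fell, and their medians were 0.22 and 0.55. Of all genes 6.96% rose in WT, and 8.57% rose and 14.7% fell in KI. Without WT sham 1 and KI sham 2 the counts were 2 and 8, beside 4.57% and 7.61% of all genes, and Ltv1 was not called in WT. Grwd1, an escort of Rpl3, had the largest rise in both genotypes, with a log2 difference of 1.08 in WT (adjusted p = 0.018) and 1.32 in KI (adjusted p = 0.0034). Its group means were 7.11, 16.8, 7.85 and 21.2 RPKM in the same order of groups as before. Rpf2, which helps load the 5S particle, rose by 0.78 in WT and 0.59 in KI (adjusted p = 0.0045 and 0.011). Ltv1, an assembly factor of the small subunit, rose by 0.55 in WT and 0.85 in KI (adjusted p = 0.039 and 0.0021). Sbds, which frees the large subunit of Eif6, rose in KI (0.91, adjusted p = 0.0074), was 0.86 higher in KI TAC than in WT TAC (adjusted p = 0.024), and had -0.17 in WT (adjusted p = 0.63). The interaction of Sbds was 1.08 and did not pass (adjusted p = 0.16).

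Of 14 genes whose mRNAs are known to carry the pyrimidine run like ribosomal protein mRNAs, 2 rose in WT (Pabpc1 and Npm1) and 2 in KI (Hnrnpa1 and Npm1), beside 6.96% and 8.57% of all genes. Npm1, which chaperones ribosomal RNA and proteins in the nucleolus, rose by 0.90 in WT and 0.55 in KI (adjusted p = 0.0077 and 0.045). Pabpc1, the poly(A) binding protein, rose by 0.98 in WT (adjusted p = 0.017), with 0.30 in KI (adjusted p = 0.38). Hnrnpa1, a splicing factor, rose by 0.95 in KI (adjusted p = 0.0034), with 0.39 in WT (adjusted p = 0.20). Eef2, the translocase of elongation, was the most abundant of the list, with group means of 842, 731, 813 and 728 RPKM, and did not pass. Median differences of the list were 0.15 in WT and 0.28 in KI. Without WT sham 1 and KI sham 2, 1 gene rose in WT (Npm1) and 4 in KI (Eef1b2, Hnrnpa1, Npm1 and Tpt1), beside 4.57% and 7.61% of all genes.

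Of 18 genes of mTORC1, its regulators and its effectors on these mRNAs, 1 fell in WT hearts after TAC and 3 in KI hearts, and 0 rose. These counts are near the background, since 4.60% of all genes fell in WT and 14.7% in KI. Ddit4, an inhibitor of mTORC1, fell in WT by 1.40 on the log2 scale (adjusted p = 0.0497) and had 0.50 in KI (adjusted p = 0.43). It was 1.94 higher in KI TAC than in WT TAC (adjusted p = 0.017), with group means of 86.7, 36.7, 88.7 and 121 RPKM. Rptor, the subunit of mTORC1 that holds its substrates, fell by 0.46 in KI (adjusted p = 0.045) and stood below WT TAC after TAC in KI (-0.57, adjusted p = 0.034). Tsc2 and Eif4ebp2, both brakes on this pathway, fell in KI by 0.54 and 0.52 (adjusted p = 0.026 and 0.042). Without WT sham 1 and KI sham 2, Ddit4 was not called in WT, and the 3 genes that fell in KI were still called. Larp1 did not pass in any comparison, with group means of 14.8, 19.2, 14.8 and 18.3 RPKM.

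Markers of other cell types moved with TAC too, where of all genes 6.96% rose and 4.60% fell in WT, and 8.57% rose and 14.7% fell in KI. Of 3 neutrophil markers in the table, 2 rose in WT and 3 in KI after TAC, at summed levels of 0.5 to 1.3 RPKM in WT sham, 3.7 to 9.9 in WT TAC, 0.4 to 0.5 in KI sham and 4.2 to 20.3 in KI TAC. Of 5 macrophage markers, 2 rose in WT (Adgre1 and Cd68) and 1 fell in KI (Csf1r). In KI 3 of the 5 had differences above 0 that did not pass, and the median of the 5 was 0.44. Sums of the 5 were 39.6 to 51.4, 50.1 to 89.2, 42.0 to 45.0 and 43.3 to 57.5 RPKM in the same order. Of the fibroblast markers 0 passed in WT and 1 (Lum) fell in KI. None of 4 endothelial, 5 red cell or 3 smooth muscle markers passed in either genotype. Between KI TAC and WT TAC, 2 of the 5 macrophage markers, Adgre1 and Csf1r, were lower in KI TAC (-1.15 and -0.91, adjusted p = 0.013 and 0.0091), while 2 others had differences above 0 that did not pass. Of all genes 2.92% were higher and 8.13% lower. Of the 5 cardiomyocyte markers 1 passed, Myl2, a ventricular myosin light chain, which was 0.86 higher (adjusted p = 0.045), while Actc1 (-0.24) and Ryr2 (-0.20) lay below 0. All 3 genes that passed were still called without WT sham 1 and KI sham 2. Without these mice 1 neutrophil and 1 macrophage marker rose in WT, 2 neutrophil markers rose in KI, and neither Myh6 in WT nor Lum or Csf1r in KI was called. The part of these cells in the ribosomal protein levels was not tested.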

How the data were processed

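The authors trimmed reads with Trimmomatic 0.39, mapped them with HISAT2 2.2.1 to GRCm38 and counted them with HTSeq 0.6.1. Libraries were poly(A)-selected and strand specific. The deposited values are RPKM per gene, and the step from counts to RPKM and the gene filter are not given in the sources used here. Times exon length (GENCODE M21, 13546 of 13552 genes), they sum to nearly the same total in every mouse. Reads per gene were recovered as whole multiples of 1 read; at a tolerance of 0.05, 97.2% to 98.1% of low values came out whole, and libraries held 23650170 to 32455167 reads on genes.

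log2(RPKM + 1) was fitted for 4 groups over 12 mice with limma 3.58.1 (R 4.3.3, trend), for genes that reached 1 RPKM in 3 mice or more, adjusting over all 11240 genes. Replicates are separate mice. Named genes were those past the threshold with the largest changes, the paralogs with their core relatives, the stalk, 5S, Rps6 and Rpsa genes, and those furthest from their subunit. The genes and lists were chosen with earlier results of these data known. Alternatives were another pseudocount, other filters, scalings, a length correction, 2-group fits, limma-voom, a looser threshold and leaving out mice. Some genes are not reported here by name.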

Additional observations from a re-analysis of the deposited data

How the results depend on the processing

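Recomputed counts and medians stayed within 1.5 times the count or within the spread between mice in 430 cases and moved in 30. That spread, the pooled SD of mouse medians, was 0.27 for the large and 0.28 for the small subunit. It exceeds every main median apart from those of TAC against sham in KI hearts. Counts of 0 that stayed 0 are among the 430, so the tally does not show that the medians are stable. In WT, the 1 gene that rose became 5 with the length trend removed (all genes, 7.42%), 3 at an adjusted p of 0.10 (10.5%), 2 in a fit of the 2 groups alone (6.46%) and 2 without both sham mice that stood apart (4.57%), an alternative chosen after seeing the data. Leaving out a mouse gave 1 to 2, where between 3.48% and 7.72% of all genes rose. In KI, the 7 genes (all genes, 8.57%) became 18 under quantile normalization (12.1%), 38 under median-ratio scaling (12.8%), 36 with the length trend removed (13.4%), 20 at an adjusted p of 0.10 (11.5%) and 55 without both sham mice (7.61%). Leaving out a mouse gave 3 to 39, where between 5.23% and 9.38% of all genes rose. For KI TAC minus WT TAC, the 1 gene (2.92%) became 3 under quantile normalization (4.65%) and 6 under median-ratio scaling (5.72%). It became 2 on rescaling without mitochondrial and ribosomal protein transcripts (3.12%) and 3 with the length trend removed (5.36%). It became 0 in the 2-group fit (0.667%), 3 at 0.10 (5.67%) and 7 without both sham mice (3.75%). On leaving out a mouse it was 0 to 2, where between 0.436% and 3.33% of all genes rose. The cause of these changes was not tested. The sham groups share numbers 1 to 3, which name mice. Deviations of same-numbered mice from their group means correlated at -0.22, -0.30 and 0.44. With 3 mice a group these deviations are tied to each other, so the values cannot show whether the mice were paired. A fit with the replicate block called 0 genes, with medians of -0.017 and -0.0037. With 3 mice a group, a gene's difference had a median 95% half-width of 0.50, which limits what could be seen.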
